A study of Mus musculus with 6 samples.

Results

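Tubulins, microtubule-associated proteins and neurite growth genes were examined in mouse Neuro2A cells after silencing of the circular RNA circCpsf6. The set holds 40 genes, each taken from the table by its symbol: 12 tubulin genes, and 28 genes for proteins that bind microtubules or tubulin, travel on microtubules or act in the growing neurite. All 40 were among the 55385 rows of the deposited table, and 36 reached the mean of 1 FPKM over the 6 libraries that was asked of a tested gene, as did 12974 genes in all. FPKM are fragment numbers divided by transcript length and by the size of the library, so they allow levels of different genes to be set side by side. Neuro2A is an established mouse neuroblastoma line, labelled as neuroblasts of brain, and was grown in DMEM with fetal bovine serum. The cells were transfected with si-circCpsf6, a small interfering RNA (siRNA) named for the circle (n = 3), or with the siRNA si-NC as the comparison (n = 3), each at 100 nM with a lipid reagent. Both groups are the same line, and no genotype, time after transfection or separate culture is given in the labels, so the p-values speak only of how far these libraries vary, and that variation may be technical.

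Microtubules are polymers of alpha and beta tubulin dimers, nucleated by gamma tubulin, and each mammalian cell builds them from a mixture of closely related isotypes whose products differ mainly in a glutamate-rich C-terminal tail. In neurons and neuroblastoma cells they fill the neurite: microtubule-associated proteins stabilise and space them, stathmins sequester free dimers, collapsin response mediator proteins (CRMPs) carry dimers to the growth cone, and kinesins move cargo along them. Free tubulin dimers also feed back on tubulin mRNA, since the first residues of a nascent tubulin chain are recognised on the ribosome when dimers are in excess and the mRNA is then degraded.

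Both of these features can be read in the coding sequences, which are printed because they set the isotypes apart and because their near-identity limits how reads can be assigned. The first 30 coding bases are shown for an alpha and a beta isotype, with the 12 bases that encode the recognised start in capitals.
Tuba1b start: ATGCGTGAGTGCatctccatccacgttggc
Tubb3 start: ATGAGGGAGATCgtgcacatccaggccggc
The last 60 coding bases before the stop codon follow for an alpha and 5 beta isotypes, from GENCODE M21 transcripts (GRCm38), with glutamate codons in capitals.
Tuba4a end: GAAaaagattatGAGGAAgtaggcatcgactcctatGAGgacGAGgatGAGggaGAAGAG
Tubb2a end: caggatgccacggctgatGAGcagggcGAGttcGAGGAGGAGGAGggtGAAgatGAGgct
Tubb2b end: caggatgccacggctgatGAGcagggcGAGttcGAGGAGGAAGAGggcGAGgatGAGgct
Tubb3 end: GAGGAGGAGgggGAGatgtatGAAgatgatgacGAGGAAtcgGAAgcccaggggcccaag
Tubb4b end: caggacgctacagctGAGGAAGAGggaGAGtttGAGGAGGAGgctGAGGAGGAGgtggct
Tubb5 end: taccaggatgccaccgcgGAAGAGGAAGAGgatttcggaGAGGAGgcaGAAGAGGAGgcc
Of 20 codons in each of these windows, between 8 (Tuba4a, Tubb2a, Tubb2b and Tubb3) and 10 (Tubb4b) encode glutamate. Tuba4a ends in a glutamate codon and so lacks the terminal tyrosine that is removed and restored in the detyrosination cycle of other alpha tubulins. Over the whole coding sequence, Tuba1a and Tuba1b were 98.3% identical, Tuba1b and Tuba1c 98.0%, and Tubb2a and Tubb2b 96.5%, while Tuba4a was 84.9% to 85.5% identical to the other alpha members. Tubb2a and Tubb3, in contrast, shared 83.7% of aligned bases.

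Across the set, no tested member differed between si-circCpsf6 and si-NC past the threshold. The test was limma on log2(FPKM + 1), with p-values adjusted by Benjamini-Hochberg over all 12974 genes and a threshold of 0.05. It called 0 members higher, where 0.902% of all tested genes were called higher, and 0 lower, where 0.786% were. At an unadjusted limma p under 0.05, 4 of 36 members were higher in si-circCpsf6 (L1cam, Dpysl5, Mapt and Tubb6), against 10.2% of all tested genes, and 6 were lower (Kif5c, Gprin1, Gap43, Tuba1b, Tubb2a and Kif5a), against 10.1%. All 3 si-circCpsf6 values lay above all 3 si-NC values for 6 members (12.8% of all tested genes) and below them for 7 members (14.0% of all tested genes). As shares of the 36 tested members, the counts at an unadjusted p under 0.05 come to 11.1% higher and 16.7% lower, and those of separated groups to 16.7% higher and 19.4% lower, so each count lay near or modestly above its background. Log2 fold changes were above 0 for 21 members and below 0 for 15, with a median of 0.06, beside a median of -0.02 over all tested genes. Their median size without sign was 0.33, against 0.22 over all tested genes, at similar median standard errors of 0.18 for members and 0.18 for all genes. The members were chosen with earlier results of these data known, so this contrast is a description and was not tested.

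**Figure D1:**
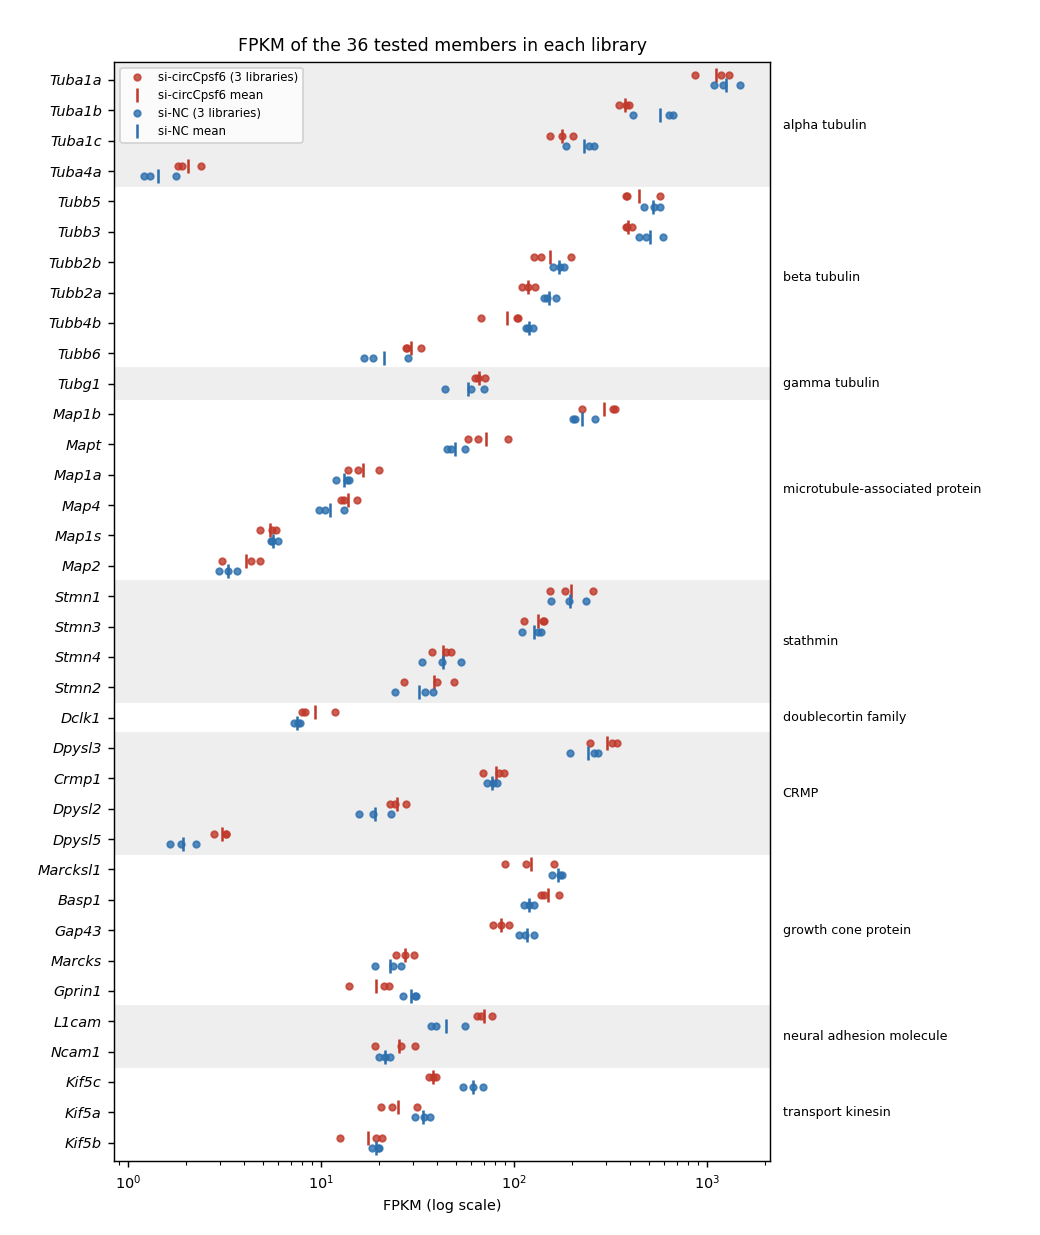
FPKM on a log axis for each of the 36 tested members, grouped by role, with si-circCpsf6 libraries drawn above si-NC libraries, points for libraries and ticks for group means. Member levels run from a mean of 1.73 FPKM (Tuba4a) to 1190.0 FPKM (Tuba1a), and for most members the points of the groups interleave.

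The plot of FPKM by library shows the scale of the set: Tuba1a, Tubb5, Tuba1b and Tubb3 were its most abundant mRNAs, and Tuba4a, Dpysl5 and Map2 its least abundant tested ones. The spread between libraries of a group also varied by gene. In si-circCpsf6 the coefficient of variation ran from 3.6% (Tubb3) to 29.6% (Marcksl1), and in si-NC from 3.6% (Dclk1) to 29.3% (Tubb6). Replicate 1 of si-circCpsf6 had the lowest value of its group for many members, such as Tuba1a, Tubb4b, Gprin1, Marcksl1, Kif5a and Kif5b. Tubb3, Gap43 and Kif5c were also lowest in that library, and Tubb5, Tubb2a, Tubb2b and Mapt were among those highest in it.

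The alpha tubulin genes included the most abundant mRNA of the set, Tuba1a, and its least abundant tested one, Tuba4a, and 3 of 4 had log2 fold changes below 0, of which Tuba1a turned above 0 under quantile normalization. Tuba1b (chr15:98931425-98934565, minus strand, GRCm38) had 351, 395 and 382 FPKM in si-circCpsf6, against 670.2, 413 and 636 FPKM in si-NC. The groups did not overlap, but si-NC replicate 2 lay close to the si-circCpsf6 libraries and far from the other si-NC libraries. On the log2 scale the difference was -0.58 ± 0.22 (SE), which missed the threshold (limma, adjusted p = 0.191). Tuba1a (chr15:98949837-98953703), the main alpha isotype of developing neurons, had 866, 1305 and 1180 FPKM in si-circCpsf6, against 1212, 1095 and 1483 FPKM in si-NC. Its groups overlapped widely, and the log2 fold change of -0.19 ± 0.23 (SE, limma adjusted p = 0.690) turned to 0.08 under quantile normalization. Tuba1c had 155, 203 and 177 FPKM in si-circCpsf6, against 259.6, 186 and 246 FPKM in si-NC, and these groups overlapped too (-0.37 ± 0.18, limma adjusted p = 0.316).

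Tuba4a, the alpha isotype encoded without a terminal tyrosine, was far less abundant than Tuba1a and stood on the other side. It had 1.82, 2.39 and 1.89 FPKM in si-circCpsf6, against 1.76, 1.30 and 1.21 FPKM in si-NC. The groups did not overlap, though the lowest si-circCpsf6 value and the highest si-NC value nearly met, and the log2 fold change of 0.33 ± 0.17 did not pass the test (limma adjusted p = 0.331). The ratio of means was 1.43, which the log2 scale of FPKM + 1 understates at such low values. In total 1379 exonic bases of Tuba4a overlap Stk16, a kinase gene on the opposite strand that averaged 2.94 FPKM in si-circCpsf6 and 2.99 FPKM in si-NC. Whether reads were counted by strand was not given in the sources used here, so reads from that stretch cannot be told apart.

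Among the beta tubulins, 5 of 6 tested genes had log2 fold changes below 0, and the groups did not overlap for Tubb2a, Tubb3 and Tubb4b. Tubb3, the beta isotype used as a marker of neurons, had 379.8, 408 and 388 FPKM in si-circCpsf6, against 484, 444 and 592 FPKM in si-NC. All 3 si-circCpsf6 libraries were close to each other and below every si-NC library, yet the log2 fold change of -0.36 ± 0.17 did not pass the test (limma adjusted p = 0.275). Tubb2a (chr13:34074274-34078007) had 129, 109.7 and 118 FPKM in si-circCpsf6, against 149, 142 and 165 FPKM in si-NC, with a log2 fold change of -0.36 ± 0.14 (limma adjusted p = 0.202). The other separated gene, Tubb4b, had 67.6, 103 and 105 FPKM in si-circCpsf6, against 118, 116 and 126 FPKM in si-NC (-0.40 ± 0.19, limma adjusted p = 0.289). Without si-circCpsf6 replicate 1, its lowest library, the log2 fold change of Tubb4b was -0.20. Tubb5 and Tubb2b overlapped between groups, at -0.26 ± 0.20 and -0.18 ± 0.19.

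Tubb6, a broadly expressed beta isotype, was the exception in its family. It had 27.8, 27.4 and 32.8 FPKM in si-circCpsf6, against 28.2, 16.8 and 18.5 FPKM in si-NC. Because si-NC replicate 1 lay within the si-circCpsf6 range, the groups overlapped, and the log2 fold change of 0.49 ± 0.20 did not pass the test (limma adjusted p = 0.235). Tubb4a, an isotype of mature neurons and oligodendrocytes, was listed at 0 in all 6 libraries. Tubg1, the gamma tubulin of microtubule nucleation, had 62.9, 70.5 and 65.0 FPKM in si-circCpsf6, against 69.7, 44.0 and 59.6 FPKM in si-NC, with overlapping groups (0.22 ± 0.18, limma adjusted p = 0.553).

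**Figure D2:**
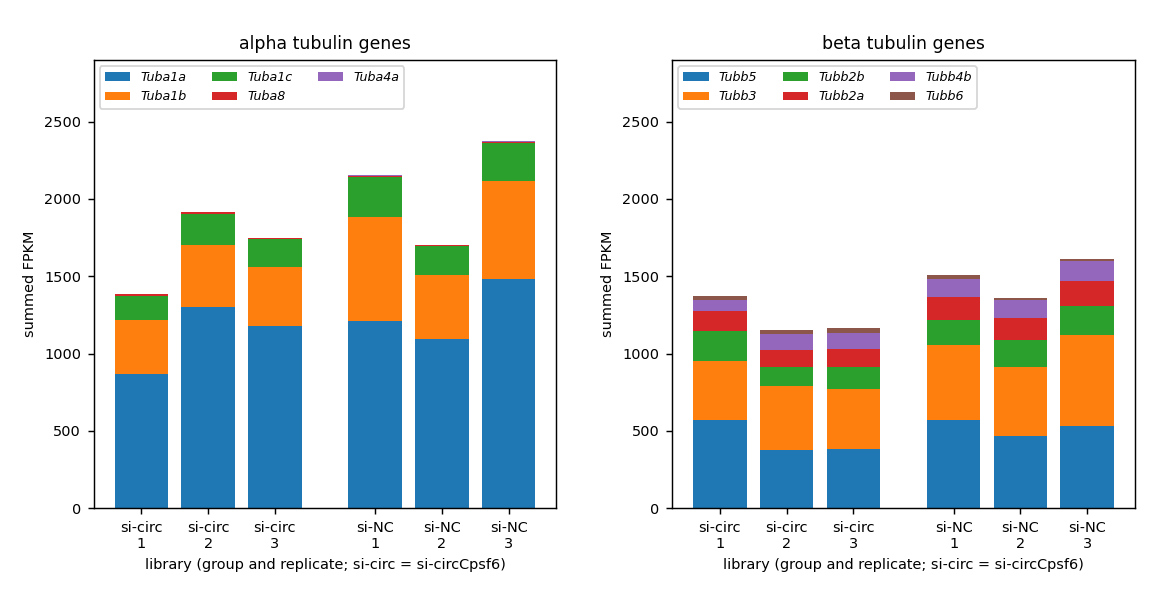
Summed FPKM of the alpha tubulin genes (left) and beta tubulin genes (right) in each library, stacked by gene, with the si-circCpsf6 libraries left of the si-NC libraries and bars starting at 0. Alpha sums overlap between groups, and the beta sum of si-circCpsf6 replicate 1 (1373 FPKM) lies above that of si-NC replicate 2 (1362 FPKM).

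Summing over each family, as in the stacked plot of tubulin FPKM, gave overlapping groups. The 8 alpha genes of the table summed to 1388, 1917 and 1749 FPKM in si-circCpsf6, against 2152, 1704 and 2372 FPKM in si-NC. The 8 beta genes summed to 1373, 1155 and 1167 FPKM in si-circCpsf6, against 1510.4, 1362 and 1615 FPKM in si-NC. The ratio of the beta sum to the alpha sum was 0.989, 0.603 and 0.667 in si-circCpsf6, against 0.702, 0.800 and 0.681 in si-NC, with replicate 1 of si-circCpsf6 the highest of the 6. Within the beta family Tubb6 made up 2.03%, 2.38% and 2.81% of the sum in si-circCpsf6, against 1.87%, 1.23% and 1.14% in si-NC, and these shares did not overlap. The share of Tuba4a in the alpha sum did not overlap either, at 0.13%, 0.12% and 0.11% in si-circCpsf6, against 0.08%, 0.08% and 0.05% in si-NC. The shares of the other tubulin members overlapped between groups. These sums and shares were not tested. All are bulk RNA values, in which fewer cells of a type and less RNA per cell cannot be told apart.

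The values of the closest copies have a further limit, because the handling of reads that match several genes was not given in the sources used here. Of all 50-base windows of its transcript, 72.9% of Tuba1a, 73.8% of Tuba1b and 61.0% of Tuba1c also stood in another annotated gene. The shares were 49.6% for Tubb2a and 39.3% for Tubb2b, mostly with each other, and 50.9% for Tubb4b, mostly with the pseudogene Tubb4b-ps1. Tubb3 and Tubb6 shared no window. The values of Tuba1a, Tuba1b, Tuba1c, Tubb2a, Tubb2b and Tubb4b as single genes are therefore uncertain, and sums with their copies are given as well. Tuba1a, Tuba1b and Tuba1c together had 1371, 1903 and 1738 FPKM in si-circCpsf6, against 2142, 1694 and 2365 FPKM in si-NC, a ratio of means of 0.808 with overlapping groups. Tubb2a and Tubb2b together had 328, 237 and 256 FPKM in si-circCpsf6, against 308, 316 and 348 FPKM in si-NC, and the separation seen for Tubb2a alone was not present in the sum. Tubb4b was summed with the 3 pseudogenes that share its windows, none of them above 1.21 FPKM. That sum, chosen after the values were seen, had a ratio of means of 0.772, and its groups did not overlap.

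Other annotated genes with the same sequence varied between libraries. Gm49450, which spans both loci and shares 473 exonic bases with Tuba1a and 426 with Tuba1b on the same strand, was listed at 0, 84.99 and 0 FPKM in si-circCpsf6 replicates 1 to 3 and at 0 in all 3 si-NC libraries. The processed pseudogene Gm3226, which shares windows with the same genes, had 13.1, 37.3 and 68.2 FPKM in si-circCpsf6, against 43.8, 64.0 and 96.2 FPKM in si-NC. Adding Gm49450 and the pseudogenes that hold at least 2% of the windows (10 genes in all) to the Tuba1a, Tuba1b and Tuba1c sum left the ratio of means at 0.812, with overlapping groups. These genes were chosen after their values were seen.

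**Figure D3:**
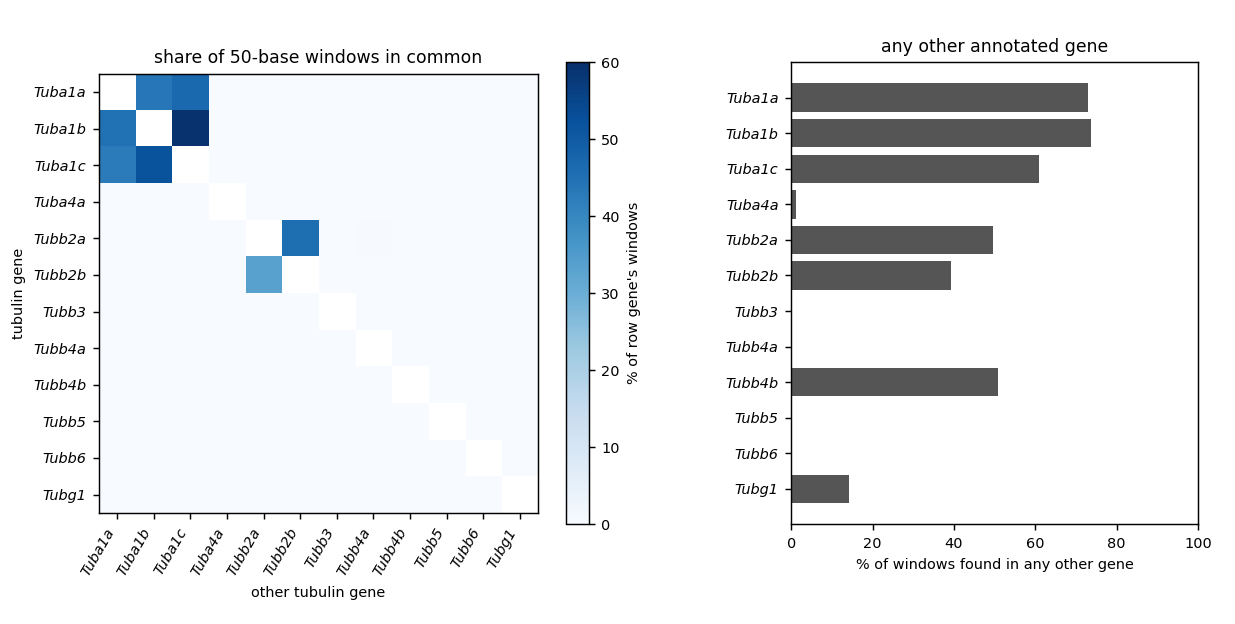
Left, the share of the 50-base windows of each tubulin transcript (rows) that also stand in another tubulin gene (columns), in percent. Right, the share found in any other annotated gene, from 0% for Tubb3 and Tubb6 to 73.8% for Tuba1b, so that the heat map and bars single out the Tuba1a, Tuba1b and Tuba1c group, the Tubb2a and Tubb2b pair and Tubb4b.

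The microtubule-associated proteins had log2 fold changes above 0 in 5 of 6 genes, none past the test. Mapt (chr11:104231390-104332090), which encodes tau, the axonal stabiliser, had 93.0, 58.0 and 64.8 FPKM in si-circCpsf6, against 56.0, 45.0 and 47.3 FPKM in si-NC. The groups did not overlap, but si-circCpsf6 replicate 2 lay close to the highest si-NC library. The log2 fold change was 0.51 ± 0.20 (limma adjusted p = 0.205). Map1b, which binds microtubules in growing axons and was the most abundant of the class, had 225, 333 and 325 FPKM in si-circCpsf6, against 208, 263 and 203 FPKM in si-NC (0.38 ± 0.20, limma adjusted p = 0.351). Map1a, Map4 and Map2, of which Map2 marks dendrites, ranged from 0.22 to 0.29 on the log2 scale, and Map1s was at -0.06 (95% interval -0.36 to 0.24). Exons of Map1a overlap 272 bases of Ppip5k1, on the opposite strand, at 3.15 FPKM in si-circCpsf6 and 2.92 FPKM in si-NC.

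The stathmins, which bind free tubulin dimers and promote microtubule disassembly, gave fold changes near 0 with wide intervals. Stmn1 had 153, 256 and 185 FPKM in si-circCpsf6, against 238, 155 and 194 FPKM in si-NC, a log2 fold change of 0.01 with a 95% interval of -0.55 to 0.56. The si-circCpsf6 range thus contained the si-NC range. Stmn3 and Stmn4 were at 0.06 (-0.31 to 0.44) and 0.02 (-0.42 to 0.46), and Stmn2, known from axon growth and regeneration, at 0.24 (-0.35 to 0.82). These intervals reach well to either side of 0, so a p that misses the threshold does not show equal levels. In Stmn1, 36.5% of windows also stand in another gene, chiefly the pseudogene Gm11223, which had 10.2, 14.8 and 28.5 FPKM in si-circCpsf6, against 38.2, 17.4 and 28.7 FPKM in si-NC.

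In the doublecortin family, which supports microtubules in migrating neurons, Dclk1 had 8.24, 7.98 and 11.8 FPKM in si-circCpsf6, against 7.55, 7.21 and 7.74 FPKM in si-NC. The groups did not overlap, with replicate 3 of si-circCpsf6 well above the rest, and the log2 fold change was 0.27 ± 0.17 (limma adjusted p = 0.421). Dcx itself, the marker of newborn neurons, was too low to test, at 0.05, 0.16 and 0.10 FPKM in si-circCpsf6, against 0.40, 0.23 and 0.38 FPKM in si-NC. Its groups did not overlap, and the authors' deposited table gives it a q-value of 0.03 and a log2 fold change of -1.73. At these levels the counting error is unknown.

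All 4 tested CRMP genes had log2 fold changes above 0. Dpysl5 (chr5:30711564-30799375), a CRMP of developing neurons, had 2.77, 3.20 and 3.23 FPKM in si-circCpsf6, against 2.25, 1.65 and 1.88 FPKM in si-NC. Every si-circCpsf6 library stood above every si-NC library, and the log2 fold change of 0.48 ± 0.15 did not pass the test (limma adjusted p = 0.141). The Dpysl5 ratio of means was 1.59, which the log2 scale of FPKM + 1 understates at such low values. Dpysl2 (CRMP2), which binds tubulin dimers, had 27.6, 22.8 and 24.2 FPKM in si-circCpsf6, against 15.7, 18.5 and 23.0 FPKM in si-NC, groups that met at their edges (0.38 ± 0.17, limma adjusted p = 0.257). Dpysl3, the most abundant member of the family, had 248, 323 and 341 FPKM in si-circCpsf6, against 260.2, 195 and 272 FPKM in si-NC, with overlapping groups. Crmp1 was at 0.05 (95% interval -0.28 to 0.38). Dpysl4 did not exceed 0.04 FPKM in any library and was not tested.

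Growth cone proteins were split between directions. Gprin1 (chr13:54736671-54749874), a G protein-regulated inducer of neurite outgrowth, had 13.9, 22.5 and 21.2 FPKM in si-circCpsf6, against 26.4, 31.0 and 30.6 FPKM in si-NC. All si-circCpsf6 libraries were lower, with replicate 1 lowest, and the log2 fold change was -0.61 ± 0.19 (limma adjusted p = 0.138). Gap43 (chr16:42248442-42340651), a membrane phosphoprotein of axonal growth cones, had 77.5, 94.2 and 86.2 FPKM in si-circCpsf6, against 115, 107 and 127 FPKM in si-NC. Its groups were apart as well, by a log2 fold change of -0.43 ± 0.14 (limma adjusted p = 0.148). Basp1, which like Gap43 and Marcks binds membrane phosphoinositides, lay on the other side, at 143, 171 and 139 FPKM in si-circCpsf6, against 119, 113 and 127 FPKM in si-NC (0.33 ± 0.14, limma adjusted p = 0.250). Marcks and its relative Marcksl1 pointed in opposite directions, at 0.25 ± 0.16 and -0.50 ± 0.22, and both had overlapping groups.

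L1cam and Ncam1 encode immunoglobulin-family adhesion molecules of axons. L1cam (chrX:73853778-73896105) had 67.8, 76.7 and 64.7 FPKM in si-circCpsf6, against 39.6, 56.0 and 37.2 FPKM in si-NC. The groups did not overlap, with si-NC replicate 2 nearest to the si-circCpsf6 libraries. The log2 fold change of 0.66 ± 0.18, a 1.57-fold ratio of means, had the second smallest p of the set and did not pass the test (limma adjusted p = 0.103). Exons of L1cam share 100 bases with Arhgap4, which averaged 0.643 FPKM in si-circCpsf6 and 0.487 FPKM in si-NC. Ncam1 had 19.0, 30.6 and 26.1 FPKM in si-circCpsf6, against 20.1, 22.8 and 21.5 FPKM in si-NC, with si-circCpsf6 libraries on both sides of si-NC.

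The transport kinesins, heavy chains of kinesin-1 that carry vesicles and mitochondria along axons, were below 0 in all 3 tested genes. Kif5c (chr2:49619298-49774778), a neuronal heavy chain, had 36.2, 38.1 and 39.4 FPKM in si-circCpsf6, against 54.7, 68.8 and 61.5 FPKM in si-NC. The si-circCpsf6 libraries were tightly grouped and the lowest si-NC library stood well above the highest of them. The log2 fold change was -0.68 ± 0.13 (95% interval -0.99 to -0.38), and the limma adjusted p of 0.0526 was the smallest of the set and just above the threshold. With genes of a mean of at least 5 FPKM alone the adjusted p was 0.0477, and the authors' deposited table gives a q-value of 0.02, so the call for Kif5c depends on the fit. Leaving out any 1 library gave adjusted p-values of 0.0832 to 0.224, with a log2 fold change of -0.77 to -0.60.

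Kif5a, the other neuronal heavy chain, had 20.4, 31.6 and 23.4 FPKM in si-circCpsf6, against 30.8, 36.6 and 34.0 FPKM in si-NC. The groups overlapped through si-circCpsf6 replicate 2 (-0.43 ± 0.18, limma adjusted p = 0.227). Kif5b, the broadly expressed heavy chain, had 12.5, 19.2 and 20.7 FPKM in si-circCpsf6, against 18.5, 19.9 and 19.7 FPKM in si-NC (-0.17 ± 0.19, limma adjusted p = 0.668). Without si-circCpsf6 replicate 1, its only low library, the log2 fold change was 0.04. Kif1a, a kinesin of synaptic vesicle precursors, was at most 0.02 FPKM and was not tested.

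**Figure D4:**
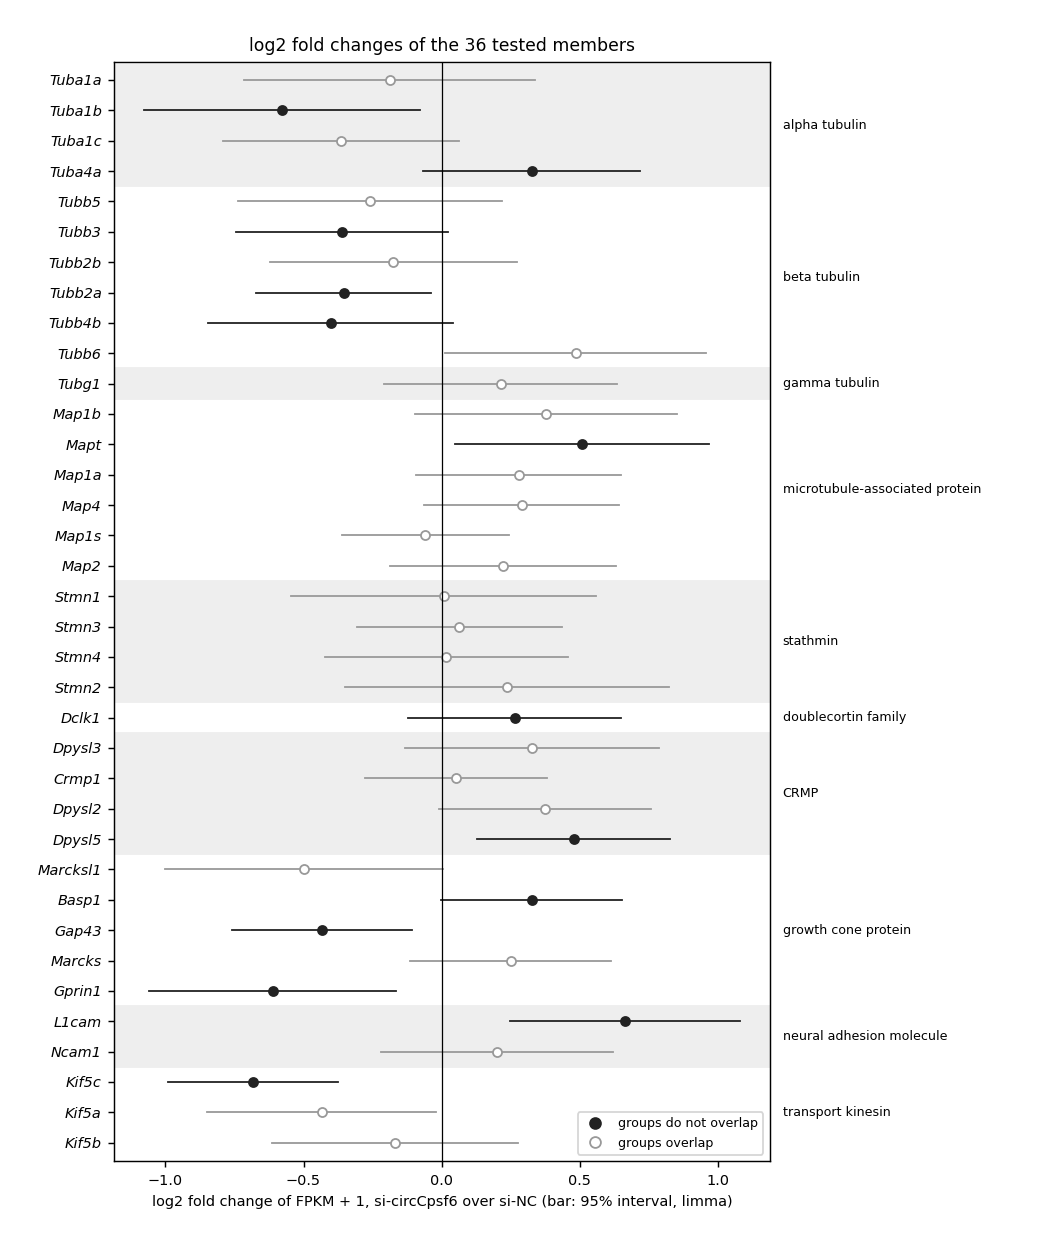
Log2 fold change of FPKM + 1, si-circCpsf6 over si-NC, with its 95% interval from limma for each of the 36 tested members by role, filled where the 3 values of each group do not overlap. Kif5c at -0.68 and L1cam at 0.66 are the extremes on this scale, which understates changes of low genes, and the 13 filled points lie on both sides of 0.

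The plot of log2 fold changes by role sets these results side by side. Among roles with at least 3 tested genes, medians ran from -0.43 for kinesins and growth cone proteins, and -0.28 and -0.31 for alpha and beta tubulins (Tuba1a turning above 0 under quantile normalization), to 0.29 for microtubule-associated proteins and 0.35 for CRMPs. These medians cover 3 to 6 genes each and carry no test. Copies that share reads do not count as separate evidence within the tubulins.

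A sequence word in 3' untranslated regions (UTRs) was read in the members because an earlier search of these same libraries had picked it out for genes lower in si-circCpsf6. The heptamer is GCAGAAT, searched on the mRNA strand of the longest annotated 3' UTR. It stood in 8 of 40 members (20.0%) and 7 of 36 tested members (19.4%), and in 1086 of 10630 tested genes with a 3' UTR of at least 50 bases (10.2%). UTR length was not matched, so these shares are descriptions. The sites of 7 carriers are printed with 11 bases on each side and the heptamer in capitals, except that the heptamer of the first Kif5c site begins at base 2 of the UTR and is followed by 11 bases.
Kif5c site 1: aGCAGAATatgactccacg
Kif5c site 2: ttgaaaatgctGCAGAATtgggtgagtgg
Tuba4a site: cctaaggactcGCAGAATaggaaagaaac
Map4 site: ctgctgcgtcgGCAGAATggtaaaaggat
Stmn2 site: gcggtctctttGCAGAATgttttgcttga
Dclk1 site: tcagggacagaGCAGAATagctctcttac
Ncam1 site: gagggcacttaGCAGAATgggagagctgg
Dcx site: ctattattgtaGCAGAATactttcgctca
The second Kif5c site lies at chr2:49771901-49771929 on the plus strand, and the Tuba4a site at chr1:75215338-75215366 on the minus strand (GRCm38). Kif5c was the only one of these carriers with 2 copies, and the printed bases of its first site span an intron (chr2:49758917-49771176). The Kif5c log2 fold change of -0.68 was the lowest of the tested members. Tuba4a (0.33), Map4 (0.29), Dclk1 (0.27), Stmn2 (0.24) and Ncam1 (0.20) lay above 0. The other tested carrier, Kif5b, whose single site is not printed, was at -0.17, and at 0.04 without si-circCpsf6 replicate 1. Dcx was too low to test, with every si-circCpsf6 value below every si-NC value (-1.73 in the authors' deposited table). Of the 7 tested carriers 5 were thus above 0 and 2 below. Among the 29 tested members without the word, 16 were above 0 and 13 below, including Gprin1, Tuba1b and Gap43. A match to these letters is no evidence that anything binds there.

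Other genes of microtubule and neurite biology were read from 8 lists of 117 genes, of which 116 were in the table and 97 were tested. The limma test called 0 higher, where 0.902% of all tested genes were called higher, and 1 lower, where 0.786% were, so the count is near the background. The gene that fell was Mark3 (chr12:111574523-111656221), a kinase that phosphorylates tau and other microtubule-associated proteins. Mark3 had 4.70, 5.04 and 4.92 FPKM in si-circCpsf6, against 8.51, 9.59 and 9.27 FPKM in si-NC, with both groups tight and well apart. The log2 fold change was -0.78 ± 0.12 (limma, adjusted p = 0.0332). The call was lost whichever library was left out (adjusted p = 0.0565 to 0.164) and without the filter on low values (0.0869), while the log2 fold change stayed between -0.83 and -0.75 in the leave-one-out fits. At an unadjusted limma p under 0.05, 15 of the 97 were higher and 7 lower, beside backgrounds of 10.2% and 10.1%.

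**Figure D5:**
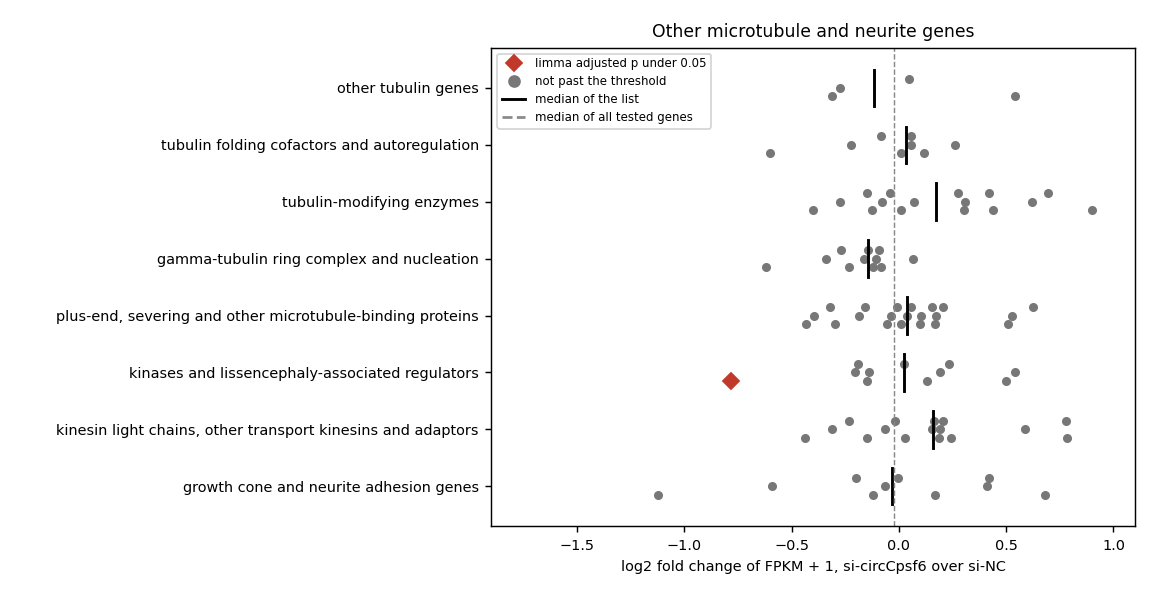
Log2 fold change of FPKM + 1, si-circCpsf6 over si-NC, for the 97 tested genes of 8 other lists, with list medians as black bars and the median of all tested genes as a dashed line. Mark3 (diamond, -0.78) is the single gene past the limma threshold, and list medians lie between -0.14 and 0.17.

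By list, as the strip plot shows, the enzymes that modify tubulin had 10 of 16 genes above 0 and a median of 0.17. At an unadjusted limma p under 0.05, 4 of these enzymes were higher and 0 lower. Over all tested genes 47.2% were above 0, and at that p 10.2% were higher and 10.1% lower. The smallest p among the enzymes belonged to Svbp, the partner of the vasohibins that remove the terminal tyrosine of alpha tubulin. Svbp had 3.81, 4.21 and 5.70 FPKM in si-circCpsf6, against 2.11, 2.36 and 2.80 FPKM in si-NC (0.69 ± 0.17, limma adjusted p = 0.0897). The gamma-tubulin ring complex and nucleation list had 10 of 11 genes below 0 with a median of -0.14, beside 6846 of 12974 tested genes below 0. Its smallest p was that of Nedd1, which targets the ring complex to centrosomes, at 3.10, 3.46 and 4.87 FPKM in si-circCpsf6, against 7.59, 5.20 and 6.32 FPKM in si-NC (limma adjusted p = 0.134). Neither Svbp nor Nedd1 had overlapping groups, and neither passed the test.

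In the remaining lists the gene with the smallest p also missed the threshold. Map7d2, a microtubule-binding protein that recruits kinesin-1, had 56.0, 72.5 and 72.9 FPKM in si-circCpsf6, against 45.4, 42.7 and 40.5 FPKM in si-NC (0.63 ± 0.15, limma adjusted p = 0.0776). Klc4, a kinesin-1 light chain, had 14.5, 7.83 and 10.4 FPKM in si-circCpsf6, against 5.08, 6.78 and 5.46 FPKM in si-NC (0.78 ± 0.22, limma adjusted p = 0.111). The light chain Klc2 was at 0.59 ± 0.18, and Klc1, the most abundant of the 3 light chains, at -0.24 ± 0.13 (limma adjusted p = 0.128 and 0.354). Fscn1, which bundles actin in filopodia, had 70.0, 93.6 and 69.0 FPKM in si-circCpsf6, against 116, 108 and 124 FPKM in si-NC (-0.59 ± 0.16, limma adjusted p = 0.103). Tuba8, an alpha tubulin outside the set, was at 0.54 ± 0.22 and the folding cofactor Tbcc at -0.60 ± 0.25 (limma adjusted p = 0.234 and 0.233).

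The libraries and the host gene set the frame for these values. Between 12860 and 13080 genes reached 1 FPKM in si-circCpsf6 libraries and between 12671 and 13024 in si-NC libraries, and read depth is unknown. Cpsf6, the host gene of the circle, had 10.6, 15.1 and 14.5 FPKM in si-circCpsf6, against 14.1, 14.5 and 15.2 FPKM in si-NC (-0.13 ± 0.15, limma adjusted p = 0.688). A gene value does not separate the circle from linear Cpsf6 mRNA and so does not check the silencing. Markers of neuroblasts and sympathoadrenal cells (10 genes, each averaging at least 1 FPKM) summed to 332 to 413 FPKM in si-circCpsf6, against 534 to 587 FPKM in si-NC, so the summed level lay lower in every si-circCpsf6 library. Most of that sum came from Chga, a granule protein, at 99.15, 95.03 and 135.94 FPKM in si-circCpsf6, against 226, 226 and 249 FPKM in si-NC, and from Hand2, a transcription factor, at 116, 122 and 121 FPKM in si-circCpsf6, against 179, 164 and 158 FPKM in si-NC. Other genes of the list did not share that direction, with log2 fold changes of 0.66 for Elavl4, 0.30 for Gata3 and 0.01 for Th, and these genes, like Klc1 and Klc2 above, were named after their values were seen. Astrocyte, microglia and fibroblast marker sums stayed under 8 FPKM and overlapped between groups, with Aqp4 listed at 0. Endothelial markers summed to 1.59 to 3.19 FPKM in si-circCpsf6, against 0.79 to 1.21 FPKM in si-NC, and oligodendrocyte markers to 1.5 to 3.16 FPKM in si-circCpsf6, against 3.19 to 4.05 FPKM in si-NC, with Mag listed at 0. The part of these markers in the member values was not tested.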

How the data were processed

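RNA from 6 libraries of Neuro2A cells (Trizol extraction) was sequenced by the authors with Illumina protocols. The labels name a small RNA kit for these mRNA libraries. The authors deposited 1 table of FPKM per gene and library, with p-values, q-values and their fold change as a ratio and as a log2 value, per the file headers. Bowtie 0.12.2 and the builds mm9 and mm8 appear in the submitters' processing notes with no stated role. The FPKM program, the test behind those p-values and the strand setting were not given in the sources used here. Whole reads could not be recovered from low values (30.6% to 35.4% whole within 0.1), so depth is unknown and no count test was run.

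Genes averaging at least 1 FPKM were tested with limma 3.58.1 (R 4.3.3, intensity trend) on log2(FPKM + 1), which understates changes of low genes, and adjusted by Benjamini-Hochberg with a threshold of 0.05. The test was checked on simulated data. An exact permutation test of 3 against 3 cannot go below 0.1. Groups and replicate numbers came from sample titles. Same-numbered libraries correlated at 0.103, 0.129 and 0.084 in their deviations from group means, above the -0.181 to 0.078 of differently numbered ones. No protocol states a block, so the numbers were not taken as pairs in the main fit. Alternatives were a pseudocount of 0.1, median centring, quantile normalization, a mean of at least 5 FPKM or none, no trend, a replicate block, the authors' q-values and leaving out each library. Adding genes with shared windows to the tubulin sums was chosen after seeing the data.

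Positions, transcripts and sequences came from GENCODE M21 (GRCm38), matched by gene ID, and were read with Python 3.11.15 and biopython 1.88. The members and lists were chosen with earlier results of these data known. The genes named were all 40 members, Cpsf6, from each other list up to 3 genes past the test or else the smallest p, and copies or overlapping genes. Some coding ends and 1 marker gene are not reported here.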

Additional observations from a re-analysis of the deposited data

How the results depend on the processing

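No member was called in the main fit, under the scalings, without the trend, without the filter, with the replicate block or in any fit without 1 library. With a mean of at least 5 FPKM 1 member was called lower (Kif5c), and by the authors' q-values 2 were (Kif5c and Dcx). Over the 12974 tested genes the 117 higher and 102 lower calls became 6 and 5 with the replicate block. Without the filter they became 4 and 9, over every gene with a value above 0. The authors' q-values gave 495 and 321, counted over all 55385 rows, so these gene sets are unlike. Leaving out 1 library gave 1 to 43 higher and 2 to 44 lower calls, the most without si-circCpsf6 replicate 1 and the fewest without si-NC replicate 3, so the count rests on each library. Of the other microtubule genes, 0 were called lower without the filter, with the block and in each leave-one-out fit (0 to 0), where Mark3 was lost, and 3 by the authors' q-values, which also called 2 higher. Every library deviated most like the library of its own number, which is a hint from the data and not the design. Tuba1a reversed to 0.084 under quantile normalization, the cause of which was not tested. Leave-one-out log2 fold changes crossed 0 for Map1s (-0.11 to 0.01), Stmn1 (-0.19 to 0.18), Stmn3 (-0.034 to 0.174), Stmn4 (-0.15 to 0.18), Crmp1 (-0.017 to 0.157) and Kif5b (-0.301 to 0.043). The other 30 tested members kept their direction in all of them. With read counts unknown, the counting error of low members such as Tuba4a, Dpysl5 and Dcx cannot be given.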
